A study of Homo sapiens with 2 samples.

Results

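The genes described here encode the subunits of the transcription factor NF-kB and proteins that regulate it. They are the subunits NFKB1, NFKB2, REL, RELA and RELB, the inhibitors NFKBIA, NFKBIB and NFKBIE, the atypical inhibitor BCL3, and the ubiquitin-editing enzyme TNFAIP3. They were chosen by name, and every probe set that carried such a name as its only gene symbol was used. This gave 15 probe sets for 9 of the 10 genes, among 19065 probe sets with 1 symbol for 11963 genes. BCL3 had no value, because its 2 probe sets were annotated with a second gene as well. RNA came from L-428, a cell line established from Hodgkin's lymphoma (HL), and was hybridised to 2 Affymetrix HG_U133A microarrays. Cells for the first array received pcDNA6.2-GW/EmGFP-miR-DUSP5, from which an artificial microRNA against DUSP5 is made together with a green fluorescent protein. Cells for the second received a vector control of the same backbone, labelled EmGFP-miR-neg, so that both populations carried a plasmid. The sources used here do not give the share of cells that took up a vector or the time after transfection.

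NF-kB acts as a dimer of Rel-domain proteins. RELA, RELB and REL (c-Rel) carry a domain that activates transcription, whereas the NFKB1 and NFKB2 proteins are precursors that are shortened to DNA-binding partners and, unshortened, act as inhibitors themselves. In resting cells the inhibitors NFKBIA, NFKBIB and NFKBIE keep dimers out of the nucleus, until a kinase complex marks them for removal by ubiquitin. Many of these genes are transcribed by NF-kB themselves, which makes a feedback loop. HL cells are known for NF-kB that stays active without a stimulus, and L-428 is known from earlier work to carry damaged copies of NFKBIA and NFKBIE, so that transcript levels of these inhibitors do not report inhibitor function in this line.

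The letters that NF-kB is known to bind occur close to the start of most of these genes. RefSeq promoter windows of assembly GRCh38.p14, from 250 bases before to 50 bases after a gene start, were searched on both strands for the NF-kB consensus decamer, with overlapping matches allowed. Of the 8 listed genes with a window, 7 held a match (87.5%), against 1937 of 27305 genes in all (7.09%). RELA had none in its 2 windows, and RELB and NFKBIE were not searched. The stretches below are shown because they carry matches that lie before the start of genes measured on the arrays. A further NFKB2 match, 166 bases before the downstream start, is not shown. The stretches are written 5′ to 3′ on the strand of the gene, and capitals mark the matched bases, which can lie on either strand.
NFKB1 (chr4:102501290-102501339, + strand): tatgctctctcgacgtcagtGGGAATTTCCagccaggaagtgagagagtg
NFKB2 (chr10:102394451-102394529, + strand): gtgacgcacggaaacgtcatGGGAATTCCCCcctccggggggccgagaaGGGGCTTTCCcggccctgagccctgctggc
NFKB2 from its start further downstream (chr10:102395664-102395704, + strand): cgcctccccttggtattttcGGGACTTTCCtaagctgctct
REL (chr2:60881507-60881557, + strand): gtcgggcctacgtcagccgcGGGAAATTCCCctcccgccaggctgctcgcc
NFKBIA (chr14:35404801-35404850, - strand): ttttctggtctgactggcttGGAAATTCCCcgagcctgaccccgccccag
NFKBIB (chr19:38899921-38899968, + strand): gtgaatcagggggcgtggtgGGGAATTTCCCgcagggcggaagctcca
TNFAIP3 (chr6:137867172-137867233, + strand): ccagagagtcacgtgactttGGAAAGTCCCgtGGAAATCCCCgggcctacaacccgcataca

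The distance from the last matched base to the gene start was 39 bases in NFKB1, 36 in REL, 71 in NFKBIA, 17 in NFKBIB and 45 in TNFAIP3. In TNFAIP3 a pair of matches stood side by side. The BCL3 match lay after the gene start and is not shown. A match is a string of letters and was not tested as a binding site.

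Signal intensities were taken as deposited, after the authors' scaling of both arrays to a target of 500, and the log2 ratio was computed as DUSP5 knock-down over vector control. There was 1 array per group, so no difference could be checked against replicates and p-values are not given. As an error, the standard deviation (SD) of log2 ratios among a gene's probe sets was used in 6 bands of mean signal. It was 1.20 in the band below 100, then 0.75 up to 200, 0.42 up to 500, 0.36 up to 1000, 0.30 up to 3000 and 0.27 beyond. This SD holds every difference between a gene's probe sets, whether or not it is error of the probes, with no part for differences among cultures. Probe sets whose signals on both arrays averaged 200 or more were called measured, which held for 12 of the 15. The lowest mean signal among these was 243 (NFKBIE), and the nearest probe set outside was the dimmer of NFKBIB at 196. Signals of different probe sets depend on the probes and are not compared with each other.

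DUSP5 itself gave 368 on the knock-down array and 628 on the control array (58.6% of control). Of 9 listed HL cell markers 8 were measured. By 1.5-fold or more, 2 were higher (25%, against 15.6% of all measured genes) and 3 lower (37.5%, against 19.0%). TNFRSF8 (CD30) stood at 3618 after knock-down and 1724 in control cells (log2 ratio 1.07), and CCL17 had 0.99. TNFRSF9 (-1.93), FUT4 (-1.25) and IL13 (-0.85) were the lower ones, but FUT4 had 0.35 at its other probe set. FSCN1 (0.49), IRF4 (0.48) and GATA3 (0.16) lay between at their brightest probe sets. At another measured probe set IRF4 had 1.12 and GATA3 -0.73. The chemokine CCL22 was low, at 117 after knock-down and 16.9 in control cells. Of the B cell markers 1 of 7 was measured (PAX5, 211 after knock-down and 268 in control cells), and of the T cell and myeloid markers 0 of 6 each. The summed signals were 38582 after knock-down and 29083 in control cells for the HL markers, 754 and 770 for B cell, 419 and 254 for T cell and 388 and 332 for myeloid markers, and no marker was at 0. A sum is led by its brightest probe sets, and the T cell sums differed mostly by CD3D (189 after knock-down and 27.3 in control cells), which was under the signal minimum. The part of these markers in the ratios below was not tested, and in bulk RNA fewer cells of a type and less RNA per cell cannot be told apart.

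The NF-kB genes differed little between DUSP5 knock-down and control cells. Of the 9 measured genes, each read at its brightest probe set, REL, at 66.6% of control, was alone in reaching a 1.5-fold difference, with 0 genes that much higher and 8 between. For comparison, a difference of this size was reached upwards by 15.6% and downwards by 19.0% of all 6301 measured genes. The typical size of the log2 ratio, as a median without regard to sign, was 0.20 for the NF-kB genes and 0.41 for all genes. Of the 9 genes, 8 lay between the quartiles of all genes (-0.44 and 0.38). Their median log2 ratio was 0.10, against 0.01 for all genes, with 5 genes above 0 and 4 below. Over probe sets, 1 of 12 was at least 1.5-fold lower and 0 were higher, where 19.1% and 15.4% of all 9037 measured probe sets were.

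**Figure D1:**
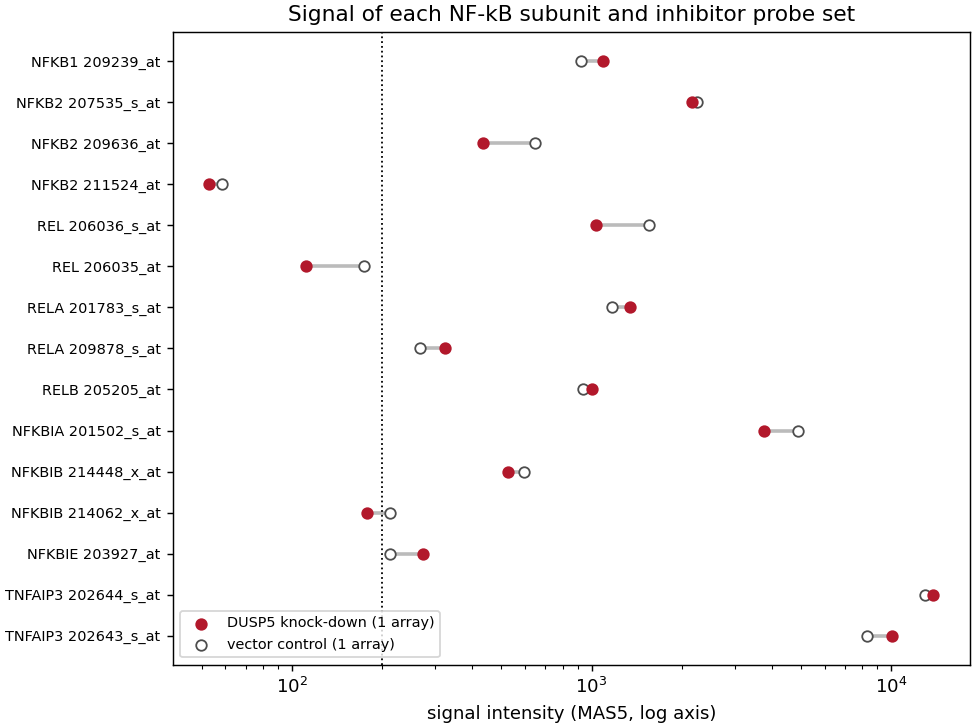
Signal intensity (log axis) of the 15 probe sets of NF-kB subunits, inhibitors and TNFAIP3 on the DUSP5 knock-down array (filled points) and the vector control array (open points), 1 array each, with a dotted line at a signal of 200. Most pairs lie close together, and the pairs of REL (1036 and 1556 at the brighter probe set) and of NFKB2 209636_at (435 and 647) are the widest among those measured.

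REL, which encodes the subunit c-Rel and lies in a region often gained in HL, was lower after knock-down whichever probe set was read. The brighter of the pair, 206036_s_at, gave 1036 on the knock-down array and 1556 on the control array, which makes a log2 ratio of -0.59 (SD 0.30). The dimmer, 206035_at, gave 111 and 174 in the same order, a log2 ratio of -0.65 (SD 0.75). The ratio of the brighter probe set was 1.95 times its SD and that of the dimmer was 0.86 times. The value lies at the edge of the 1.5-fold rule (0.58 on the log2 scale), and under 3 of the 7 alternatives that gave a value REL fell short of it, with -0.51 after quantile normalization, -0.54 after subtraction of a lowess fit on signal and -0.57 with 32 added to each signal.

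RELA, the activating subunit of the classical dimer, had the opposite sign. Its probe set 201783_s_at gave 1339 after knock-down and 1166 in control cells (log2 ratio 0.20, SD 0.30), and 209878_s_at gave 325 and 267 (0.28, SD 0.42). Both ratios were smaller than 1 SD. The difference between the log2 ratios of REL and RELA, at the brighter probe set of each, was -0.79, against 0.43 for the SDs of both combined. This difference is the same under every scaling that shifts all ratios equally.

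RELB, the activating partner in the alternative pathway, gave 1004 on the knock-down array and 935 on the control array, a log2 ratio of 0.10 (SD 0.36). NFKB1, whose product pairs with RELA and REL, gave 1092 after knock-down and 921 in control cells, or 0.25 (SD 0.30). The ratios of RELB and NFKB1 were thus within 1 SD of 0. REL and NFKB1 differed by -0.83 on the log2 scale, with a combined SD of 0.43.

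NFKB2, whose product is the precursor of the alternative pathway and pairs with RELB, had 3 probe sets that did not give the same size of ratio. The brightest, 207535_s_at, gave 2171 after knock-down and 2257 in control cells, a log2 ratio of -0.06 (SD 0.30). The next, 209636_at, gave 435 and 647, or -0.57 (SD 0.36), which is 1.49-fold lower and just short of the 1.5-fold rule. The dimmest, 211524_at, gave 53.0 and 58.3, or -0.14 (SD 1.20), at a signal where a ratio carries little weight. The sign was the same at all 3, and which of them follows the transcript best was not tested.

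**Figure D2:**
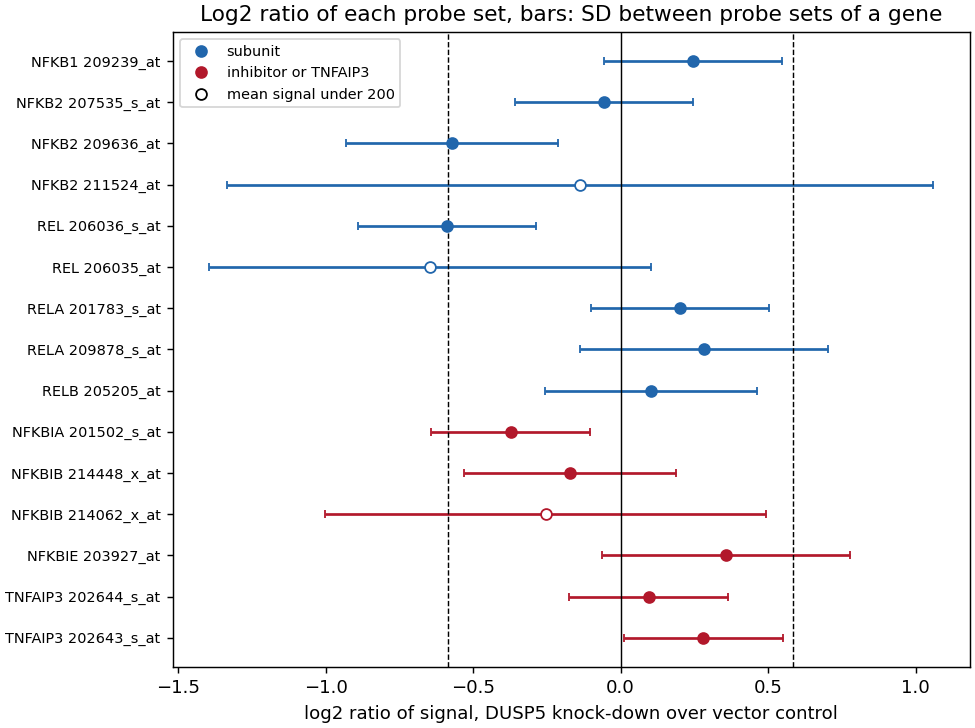
Log2 ratio of signal (DUSP5 knock-down over vector control, 1 array each) of each probe set, with bars of 1 SD among a gene's probe sets at that signal. Blue points are subunits, red points are inhibitors and TNFAIP3, open points have mean signals under 200, and dashed lines mark a 1.5-fold difference. The bars of NFKB2 209636_at, REL 206036_s_at, NFKBIA and TNFAIP3 202643_s_at do not reach 0.

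None of the 3 measured inhibitors reached a 1.5-fold difference in the signals as deposited. NFKBIA, the fast feedback inhibitor of classical dimers, gave 3767 on the knock-down array and 4878 on the control array, 77.2% of control, with a log2 ratio of -0.37 that was 1.38 times the SD of 0.27. It was lower in all 7 alternatives that gave a value, and at least 1.5-fold lower in 2 of them, relative to GAPDH (-1.35) and relative to the bacterial hybridisation controls (-0.67). NFKBIB, a slower inhibitor of the same family, gave 527 after knock-down and 593 in control cells (log2 ratio -0.17, SD 0.36) at 214448_x_at and 178 and 213 (-0.25, SD 0.75) at 214062_x_at, both within 1 SD of 0. NFKBIE gave 273 and 213, a log2 ratio of 0.36 (SD 0.42), which is the highest among the 9 genes and also within 1 SD of 0.

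TNFAIP3, which removes activating ubiquitin chains from the signalling complexes upstream of NF-kB and is itself induced by NF-kB, was near the same level on both arrays. Its probe set 202644_s_at gave 13833 after knock-down and 12949 in control cells (log2 ratio 0.10, SD 0.27), and 202643_s_at gave 10090 and 8311 (0.28, SD 0.27). The sign of TNFAIP3 turned with the scaling, to -0.37 after quantile normalization and -0.31 after subtraction of the lowess fit, and it was also below 0 centred (-0.03) and relative to the hybridisation controls (-0.21) and GAPDH (-0.88). NFKBIA and TNFAIP3 are both feedback genes with a match close to the start, and their log2 ratios differed by -0.47, with a combined SD of 0.38. After quantile normalization the difference was -0.13 and with the lowess fit subtracted -0.21, both inside that SD.

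The signs of the smaller ratios depended on what the arrays were set against. The 3 GAPDH probe sets were higher after knock-down (median log2 ratio 0.98), and the 18 of the hybridisation controls had a median of 0.30. Relative to GAPDH all 9 genes were at least 1.5-fold lower, as were 75.4% of all measured genes, with 0.778% higher. Relative to the hybridisation controls REL (-0.89) and NFKBIA (-0.67) were, with 32.6% of all genes lower and 6.16% higher, and with ratios centred on their median REL alone was (-0.71), with 24.1% lower and 11.0% higher. These scalings put the median of all genes at -0.97, -0.29 and -0.12. REL, NFKB2, NFKBIA and NFKBIB were below 0 in every alternative that gave a value. NFKB1 and RELA were below 0 only relative to GAPDH and the hybridisation controls, NFKBIE only relative to GAPDH, and RELB in those and, at -0.02, with centred ratios.

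**Figure D3:**
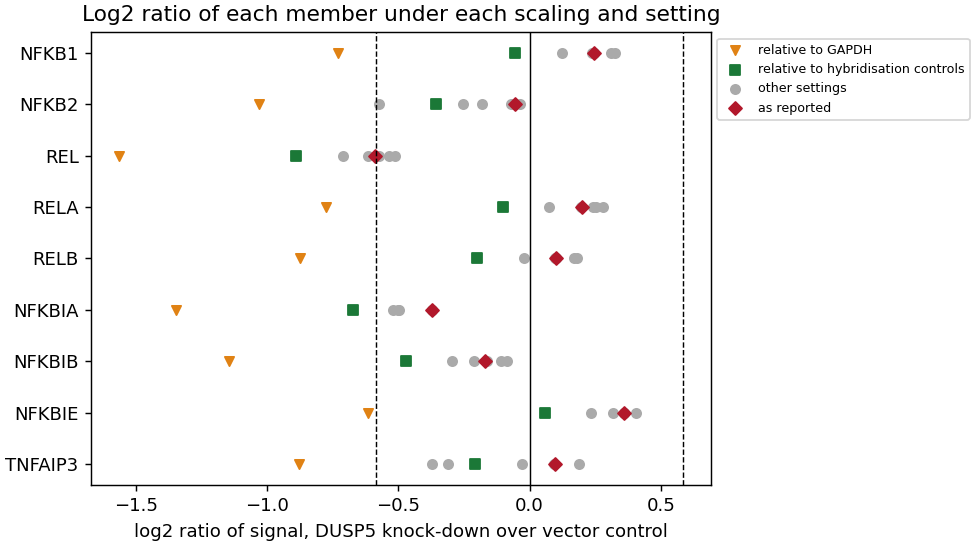
Log2 ratio (DUSP5 knock-down over vector control) of each of the 9 genes as reported (red diamonds), relative to GAPDH (orange triangles), relative to the hybridisation controls (green squares) and under the other settings (grey), with dashed lines at a 1.5-fold difference. REL stays below 0 throughout and crosses the 1.5-fold line between settings, and the points of TNFAIP3 lie on both sides of 0.

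Upstream of the inhibitors, the listed kinases and adaptors of NF-kB signalling went both ways. Of the 20 that were measured, 5 were higher by 1.5-fold or more (25%, against 15.6% of all genes) and 3 lower (15%, against 19.0%). The balance turned with the setting, to 3 higher and 4 lower with centred ratios, 3 and 3 with probe sets averaged per gene and 1 and 6 relative to the hybridisation controls. In the same order, 11.0%, 15.7% and 6.16% of all genes were higher and 24.1%, 17.8% and 32.6% lower. The median log2 ratio was 0.07 (-0.06 both with centred ratios and with probe sets averaged per gene, -0.23 and -0.91 relative to the hybridisation controls and GAPDH). The lowest were RBCK1 (787 after knock-down and 1831 in control cells, log2 ratio -1.22), a part of the linear ubiquitin ligase, the kinase IKBKB (312 and 546, -0.81), which phosphorylates the inhibitors, and the adaptor TANK (2351 and 4024, -0.78). RBCK1 had 0.03 at its other probe set, whereas IKBKB and TANK were lower at all of theirs. The highest were UBE2N (3817 and 1794, 1.09), the enzyme that builds activating ubiquitin chains, and the kinases MAP3K7 (1709 and 972, 0.81) and TBK1 (2689 and 1531, 0.81). UBE2N ranged from 0.02 to 1.09 over 3 probe sets and MAP3K7 from -0.03 to 0.81 over 4, so that these genes rest on their brightest probe sets.

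The ligase that removes phosphorylated inhibitors showed small ratios apart from its RING subunit RBX1, which gave 2623 after knock-down and 1463 in control cells (log2 ratio 0.84). It was the single member of 6 that reached a 1.5-fold difference, a share of 16.7% that is close to the 15.6% of all genes that were higher. The substrate receptors FBXW11 (-0.37) and BTRC (-0.15), the adaptor SKP1 (-0.17), the scaffold CUL1 (-0.03) and its modifier NEDD8 (-0.07) lay within that range.

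Of 10 measured genes listed as other inhibitors and terminators of NF-kB, 1 was higher (10%, against 15.6% of all genes) and 1 lower (10%, against 19.0%), with a median log2 ratio of -0.02. The lower was CYLD, a deubiquitinase that takes activating chains off the same signalling complexes as TNFAIP3. CYLD gave 1012 on the knock-down array and 2582 on the control array, a log2 ratio of -1.35 (SD 0.30), and all 7 of its probe sets were lower, with -1.70 to -0.85 at the 5 that were measured. TNIP1, an adaptor that brings TNFAIP3 to ubiquitin chains, was the higher, with 2458 and 1364 (0.85, SD 0.30). TAX1BP1 (-0.50), which works with TNFAIP3, and N4BP1 (-0.27) followed CYLD at the lower end, and N4BP1 was lower at all 4 probe sets, down to -0.97. RNF11 (0.38) and TNFAIP8 (0.31) followed TNIP1 at the upper end. With the types _s_at and _x_at left out, 2 of 5 genes of this list were lower and 0 higher, with a median of -0.27. In that setting 21.3% of all genes were lower and 14.5% higher, with a median of -0.04, and 5 genes are too few to read a shift from.

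The listed transcriptional targets of NF-kB were more often lower than higher after DUSP5 knock-down. Of 38 measured targets, 12 were at least 1.5-fold lower (31.6%, against 19.0% of all genes) and 3 at least 1.5-fold higher (7.89%, against 15.6%), with a median log2 ratio of -0.26. The counts were less uneven with no filter on low signals, under a 2-fold rule and with probe sets averaged per gene. With no filter, 16 of 54 were lower and 11 higher, where 18.7% of all genes were lower and 24.6% higher. Under the 2-fold rule, 4 of 38 were lower and 2 higher, where 7.30% and 4.38% of all genes were. Averaged per gene, 10 of 38 were lower and 3 higher, where 17.8% and 15.7% of all genes were. The median was below that of all genes in every alternative, from -1.23 relative to GAPDH to -0.11 with no filter on low signals. The lowest were the chemokine CXCL10 (1122 after knock-down and 4589 in control cells, -2.03), which is also induced by interferon, the receptor TNFRSF9 (239 and 911, -1.93) and the cytokine IL15 (403 and 888, -1.14). The highest were the growth factor PDGFB (428.5 and 204.4, 1.07), the adhesion molecule ICAM1 (3546 and 1749, 1.02) and the chemokine CCL17 (6019 and 3022, 0.99), a product typical of HL cells. ICAM1 had 0.17 at 1 of its 3 probe sets. PDGFB was measured at only 1 of its 4 probe sets, and 2 of the 4 were lower. Relative to GAPDH, 0 genes of the 4 lists were at least 1.5-fold higher, and 14 of 20 kinases and adaptors, 5 of 6 ligase genes, 9 of 10 other inhibitors and 33 of 38 targets were that much lower. In that setting 75.4% of all genes were lower and 0.778% higher. The target list was written with earlier results of these arrays known and says nothing of whether NF-kB drove these genes in L-428.

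**Figure D4:**
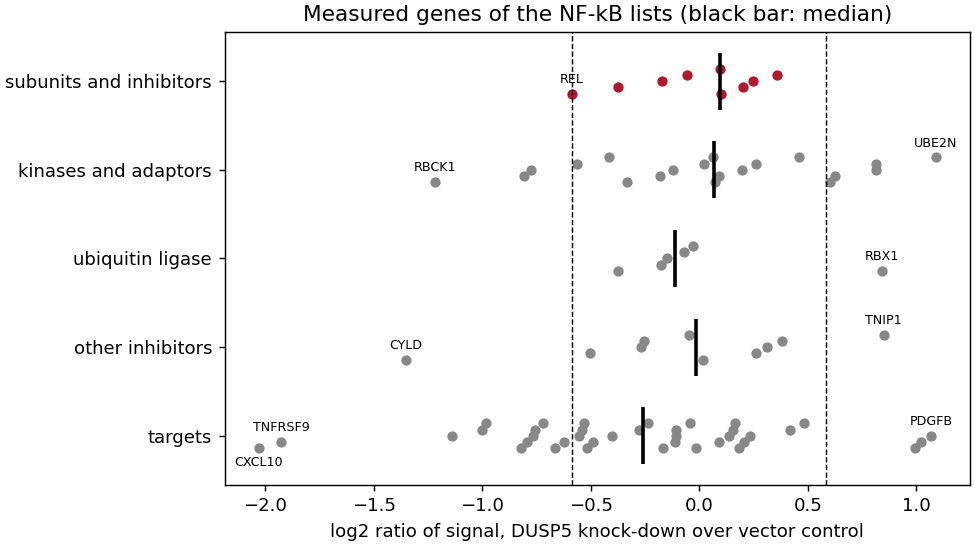
Log2 ratio (DUSP5 knock-down over vector control, 1 array each) for 5 lists of genes, 1 point per measured gene, with black bars at the median of each list and dashed lines at a 1.5-fold difference. The vertical offset of points has no meaning. The 9 subunits and inhibitors lie between -0.59 and 0.36, whereas targets reach from -2.03 to 1.07.

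Both directions occurred among measured genes that share the promoter match. The consensus decamer stood in a window of 477 measured genes. Of these, 86 were higher by 1.5-fold or more (18.03%) and 105 lower (22.01%), with a median log2 ratio of 0.01. Among 4857 measured genes with a window and no match, 758 were higher (15.6%) and 888 lower (18.3%), with a median of 0.02. Both shares were thus larger with a match than without, and whether by more than chance was not tested. Of the listed targets with a window, 22 of 45 held a match (48.9%), against 2 of 25 of the kinases and adaptors (8.0%). Among the other inhibitors 4 of 16 did (25%), among the ligase genes 2 of 7 (28.6%) and among all genes with a window 7.09%.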

How the data were processed

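Gene expression of L-428 cells was measured on 2 HG_U133A arrays, 1 after DUSP5 knock-down and 1 with control vector. Per the authors' methods, Expression Console and its MAS5 algorithm turned the Cel files into the deposited signal intensities, on a linear scale with a target intensity of 500. Gene names came from the platform annotation of 2016. Of 22283 probe sets, 68 controls, 1043 with several symbols and 2107 with none were not named. Median signals were 164 after knock-down and 161 in control cells. Log2 ratios, the 1.5-fold rule, the minimum mean signal of 200 and the SD between probe sets of a gene lying in the same signal band were computed with Python 3.11.15, numpy 2.4.6, pandas 2.3.3 and statsmodels 0.14.6, and figures with matplotlib 3.10.9. The SD between probe sets and the 1.5-fold calls were tested on simulated data, with the same noise at every signal. The planted shifts were far larger than the ratios of the 9 genes, so that test does not cover ratios near the rule. The scalings, the promoter search and the list counts were not simulated. The number of arrays limits the precision. Of the 10 genes, 9 were reported with every probe set that carried their symbol alone, and of each other list up to 3 measured genes at either end. The members and the lists were chosen with earlier results of these data known. Of the alternatives, 5 concern scaling and the others are given in the closing section.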

Additional observations from a re-analysis of the deposited data

How the results depend on the processing

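Counts of NF-kB genes past 1.5-fold rest on REL, which lies at the rule's edge. Against 1 gene and 1 probe set as reported, the counts were 0 and 0 after quantile normalization, with the lowess fit (span 0.3) subtracted, with 32 added to each signal, with a 2-fold rule and without the types _s_at and _x_at, where 4 genes were measured and REL was not among them. They were 9 and 12 relative to GAPDH and 2 and 3 relative to the hybridisation controls. With centred ratios 2 probe sets were counted, and with no filter 2. At a mean signal of at least 500 both counts were 1, as was that of genes with probe sets averaged per gene. Of all measured genes, 34.6% were past 1.5-fold either way as reported and at a mean signal of at least 500. The share was 33.6% after quantile normalization and with the lowess fit subtracted, and 31.9% with 32 added. It was 35.9% without the types _s_at and _x_at, 43.25% with no filter and 33.5% with probe sets averaged per gene. It was 76.2% relative to GAPDH, 38.7% relative to the hybridisation controls and 35.1% centred. At least 2-fold was reached by 11.7%. The median log2 ratio of the NF-kB genes, 0.10 as reported, was -0.038 after quantile normalization, -0.072 with the lowess fit subtracted, -0.029 centred, -0.88 relative to GAPDH and -0.21 relative to the hybridisation controls. The last 3 subtract a fixed value by construction, and for the other changes the cause was not tested. Over the alternatives single genes gave 67 ratios, of which 53 stayed within the SD among probe sets of the reported ratio and 14 did not. No paired analysis was possible because only 1 array was made per group. Low signal over background limits the dimmer probe sets of REL, NFKB2 and NFKBIB.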
